A study of Mus musculus with 21 samples.

Results

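The genes described here encode chaperones of the endoplasmic reticulum (ER), the compartment in which secreted and membrane proteins fold. They are 10 rows of the 55573 in the deposited expression table, picked by gene symbol: Calr, Calr3, Canx, Clgn, Pdia3, Pdilt, Pdia4, Pdia6, P4hb and Hsp90b1. The choice was made with earlier results of these data known. All 10 symbols stood on a single row each. The table holds TPM, a transcript abundance corrected for length and scaled to the same sum in every library, and the members were among the 18977 rows that averaged 1 TPM or more. Each of Calr, Canx and Pdia3 is broadly expressed and was set beside a relative known from male germ cells, Calr3, Clgn and Pdilt, which gives 3 pairs.

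Glycoproteins that enter the ER carry a sugar chain whose trimmed form is bound by the lectin chaperones calreticulin (Calr, soluble) and calnexin (Canx, membrane-bound). Both lectins hand their clients to Pdia3, a thiol oxidoreductase that helps disulfide bonds form. Mouse germ cells make a further set of these proteins: calsperin (Calr3), calmegin (Clgn) and Pdilt, a protein disulfide isomerase relative. In mice these serve the folding of sperm surface proteins of the ADAM family, and males that lack any of them are infertile although they make sperm.

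The RNA came from whole testes of C57BL6 males and was sequenced with a stranded mRNA kit, in 21 libraries labelled as biological replicates. Heated Mageb4 knockout (n = 5) and heated wild type (n = 4) were taken 72 h after heat shock, and unheated Mageb4 knockout (n = 6) and unheated wild type (n = 6) had no heat. The sources used here do not give the knockout allele, the age of the animals, or how hot and how long the heat was. The study asked how loss of Mageb4, a MAGE family gene on the X chromosome, alters testis RNA with and without heat. Mageb4 itself stood at 0.120 ± 0.0224 TPM in heated knockout and 8.03 ± 0.222 TPM in heated wild type, and at 0.0467 ± 0.0361 TPM in unheated knockout and 1.80 ± 0.173 TPM in unheated wild type (SD between libraries), in accord with the labels.

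TPM keeps no read depth, so the counting error behind a value is unknown and the spread between replicates stands in for it. Between libraries of the same group the Pearson correlation of log2(TPM + 1) lay between 0.987 and 0.997. Markers of the labelled tissue were present in every group, as given with the marker lists. There were 3 libraries that stood apart from their groups. Crisp1, a gene of the epididymis, reached 2126 TPM in heated wild type 3 and no more than 3.81 TPM in any other library. The summed TPM of 10 round spermatid markers was 149.96 in heated wild type 1 and at most 48.7 in the other 3 libraries of its group. Unheated knockout 6 had a summed 3023 TPM of 12 Sertoli cell markers, the highest of its group, whose median was 2408. Results were therefore also computed without these libraries.

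At 72 h after heat the ratio within each pair had shifted toward the broadly expressed gene in both genotypes. In wild type all 7 broadly expressed chaperones rose, between 1.87-fold for Pdia3 and 4.00-fold for Pdia4, while all 3 germ-cell relatives fell, Calr3 by 8.13-fold, Clgn by 10.3-fold and Pdilt by 23.9-fold. In the knockout the same heat left smaller differences: 6 of the 7 broadly expressed genes rose, by 1.19-fold to 2.00-fold, Clgn and Pdilt fell by 3.66-fold and 3.44-fold, and Calr3 averaged 113 ± 18.5 TPM in heated knockout against 118 ± 7.66 TPM in unheated knockout, which did not pass the test. All 10 heat effects differed between the genotypes, but so did those of 80.7% of all genes tested. Most genes also responded to heat: 91.6% in wild-type testes (47.0% up, 44.6% down) and 82.8% in knockout testes (41.3% up, 41.5% down). The member counts are to be read beside these shares. Folds are ratios of group mean TPM. Since these are whole testes, fewer cells of a type and less RNA per cell cannot be told apart in any of these values.

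**Figure D1:**
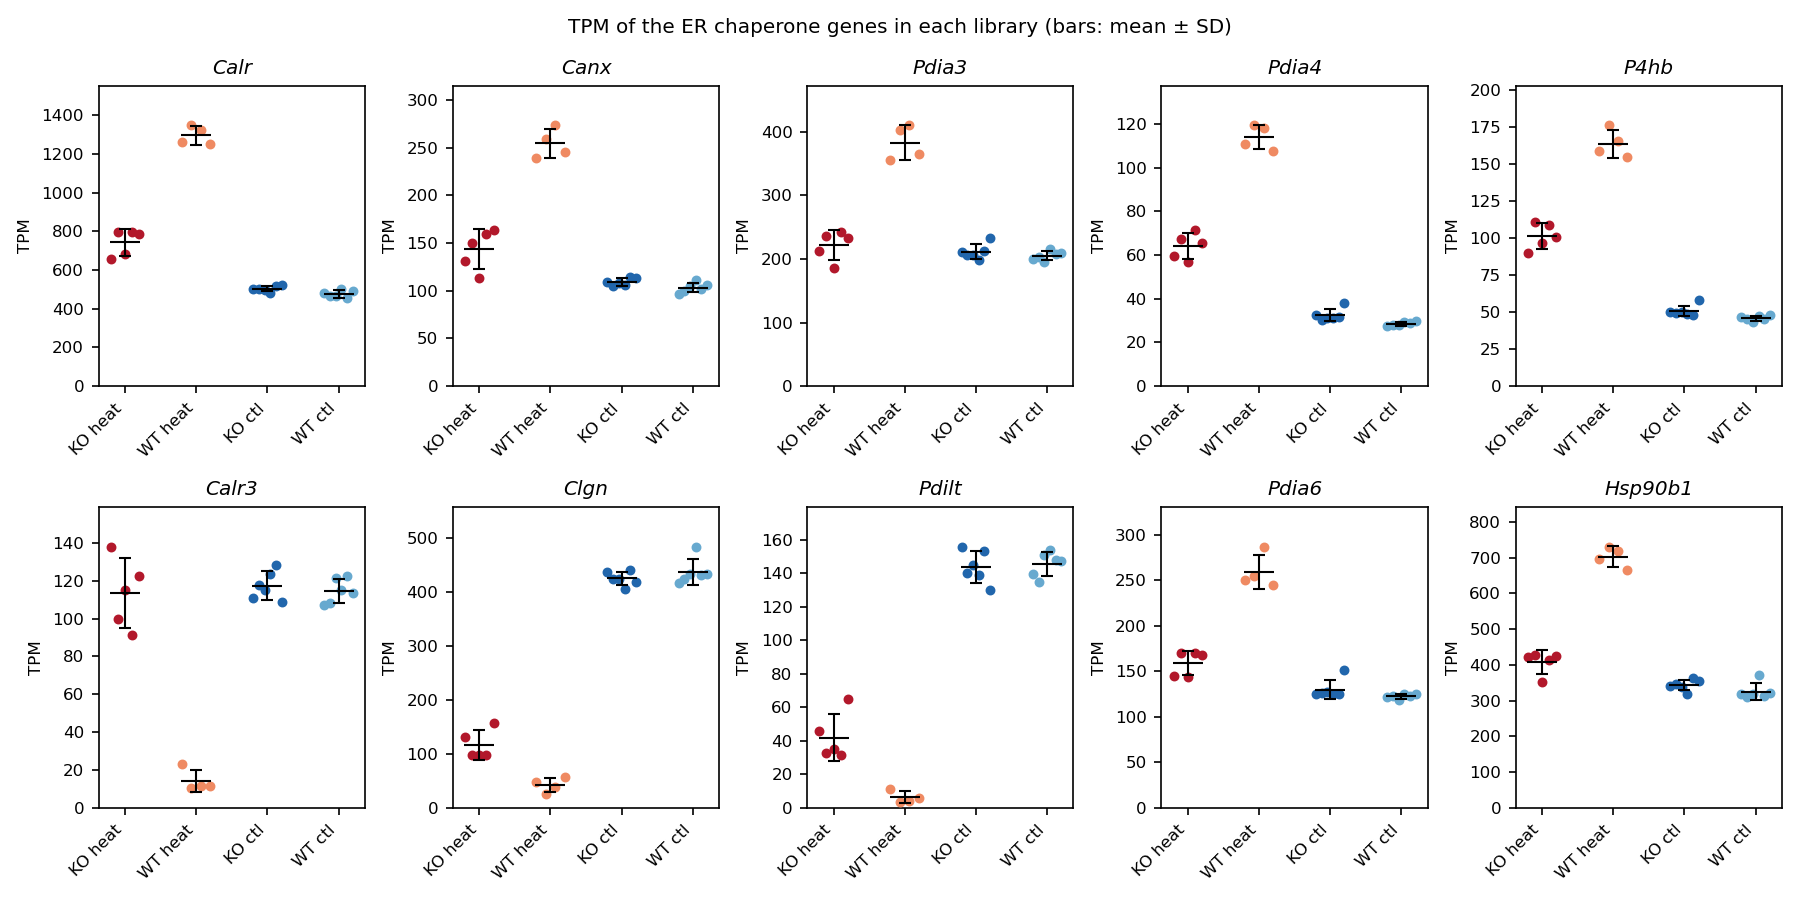
TPM of each ER chaperone gene (y axis, linear, from 0) in every library, by group (KO, Mageb4 knockout; WT, wild type; heat, 72 h after heat shock; ctl, unheated). Points are libraries and bars are group means ± SD (n = 5, 4, 6 and 6 from left to right). In the heated wild type Calr, Canx, Pdia3, Pdia4, P4hb, Pdia6 and Hsp90b1 lie above all other groups and Calr3, Clgn and Pdilt below them.

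Some promoters of the broadly expressed members share a known element. The ER stress response element, here the letters CCAAT, any 9 bases and CCACG on either strand, is known as a site of the transcription factors ATF6 and NF-Y in genes induced when misfolded protein builds up in the ER. RefSeq promoter windows on GRCm38.p6 were matched for 9 members, all but Clgn, which was therefore not searched. Within 250 bases before the start site the element was found in Calr, Canx, Hsp90b1 and Pdia6, with 2 copies in Hsp90b1, and in 37 of 32851 promoters overall (0.113%). The related motifs ATTGG with any 1 base and CCACG (0.0304% of promoters), TGACGTGG (0.563%) and TGACGTCA (1.55%) were in no member's window on either strand. In Calr the element starts 162 bases before the RefSeq start on the opposite strand, where it reads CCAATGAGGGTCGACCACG, and in Canx it starts 145 bases before it and reads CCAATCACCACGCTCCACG. The copies of Hsp90b1 start 212 and 107 bases before its start and read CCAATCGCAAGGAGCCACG and, on the opposite strand, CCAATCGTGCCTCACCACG. In Pdia6 it starts 98 bases before and reads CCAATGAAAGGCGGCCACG. These stretches outside annotated exons are printed 5′ to 3′ on the gene's strand with the element in capitals, to show the 4 members that hold it, and Pdilt is added as a germ-cell member without a match:
Calr, chr8:84846935-84847181, minus strand: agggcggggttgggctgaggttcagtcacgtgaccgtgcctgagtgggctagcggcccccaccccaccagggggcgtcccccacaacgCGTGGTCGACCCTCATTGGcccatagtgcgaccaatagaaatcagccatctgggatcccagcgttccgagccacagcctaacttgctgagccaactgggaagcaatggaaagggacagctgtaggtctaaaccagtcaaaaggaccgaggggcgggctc
Canx, chr11:50325674-50325923, minus strand: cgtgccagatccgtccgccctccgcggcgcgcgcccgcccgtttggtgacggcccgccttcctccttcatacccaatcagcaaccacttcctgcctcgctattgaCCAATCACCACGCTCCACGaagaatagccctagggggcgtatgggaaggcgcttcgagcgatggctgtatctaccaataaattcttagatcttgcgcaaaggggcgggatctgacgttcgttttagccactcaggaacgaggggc
Hsp90b1, chr10:86705510-86705694, minus strand: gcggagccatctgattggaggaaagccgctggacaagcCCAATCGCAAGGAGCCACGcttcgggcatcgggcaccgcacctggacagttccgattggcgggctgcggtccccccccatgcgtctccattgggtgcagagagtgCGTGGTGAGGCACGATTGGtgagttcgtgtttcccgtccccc
Pdia6, chr12:17266339-17266544, plus strand: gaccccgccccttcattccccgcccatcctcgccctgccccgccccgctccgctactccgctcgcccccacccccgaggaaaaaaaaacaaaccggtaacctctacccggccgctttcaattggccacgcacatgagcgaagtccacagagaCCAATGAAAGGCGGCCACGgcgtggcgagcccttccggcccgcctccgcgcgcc
Pdilt, chr7:119523490-119523732, minus strand: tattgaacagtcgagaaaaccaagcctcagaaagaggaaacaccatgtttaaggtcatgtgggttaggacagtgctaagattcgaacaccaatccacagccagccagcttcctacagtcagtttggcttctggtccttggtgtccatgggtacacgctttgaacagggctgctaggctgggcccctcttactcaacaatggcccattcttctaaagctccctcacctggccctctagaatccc
A match is a run of letters and not a measured binding site. All 250 bases of the Pdia3 window lay in annotated exons of Catsper2 or Pdia3. The Pdia4 window, chr6:47813513-47813762, did not reach the annotated gene, so for both the lack of a match covers these windows only. The 4 members with the letters and Pdia3, Pdia4 and P4hb without them all rose after heat in wild type, beside 47.0% of all genes. A part of the letters in this rise was not tested.

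**Figure D2:**
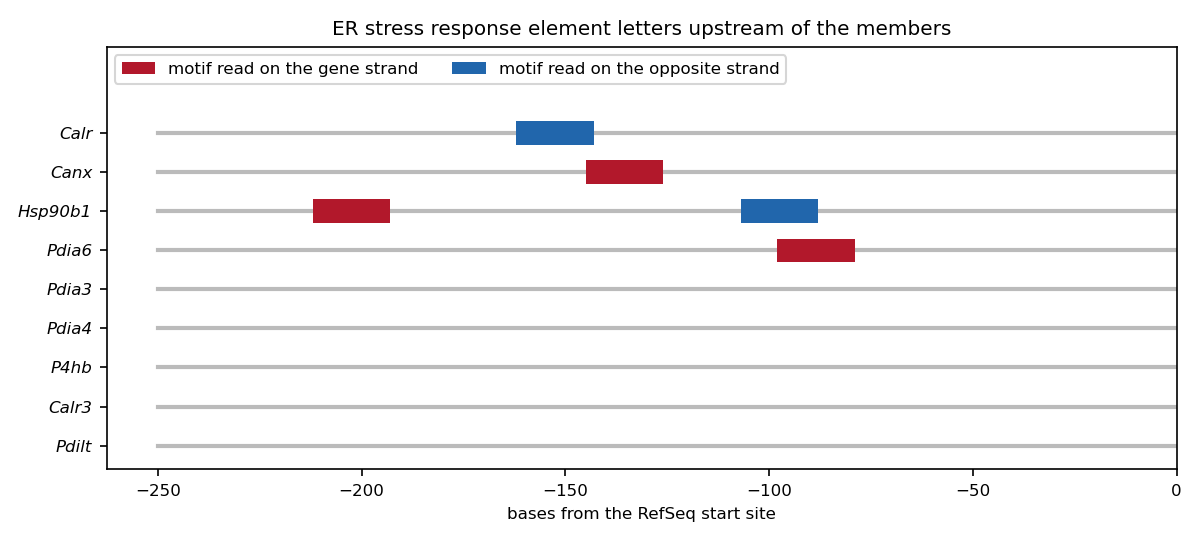
Position of the ER stress response element letters in the 250 bases before the RefSeq start of 9 members (x axis, bases from the start site; red, read on the gene's strand; blue, read on the opposite strand). Calr, Canx and Pdia6 have 1 match each, Hsp90b1 has 2 and the other 5 genes have none.

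Calr (chr8:84841850-84846934 on mm10, minus strand, protein-coding) encodes calreticulin, which also buffers calcium in the ER. Its level was 655, 799, 683, 796 and 787 TPM in the 5 heated knockout libraries and 1261, 1349.7, 1325 and 1252 TPM in the 4 heated wild-type libraries. In the unheated knockout it ran from 483 over a median of 502 to 525 TPM, and in unheated wild type from 453 over 474 to 504 TPM. Every heated library was above every unheated one, and every heated wild-type library above every heated knockout one. Differences on the log2(TPM + 1) scale were tested with limma across the 18977 genes. Calr rose with heat by 0.55 ± 0.05 (moderated standard error) in the knockout (adjusted p = 1.81e-09) and by 1.44 ± 0.05 in wild type (adjusted p = 2.74e-16). The order of its group means was heated wild type, heated knockout, unheated knockout, unheated wild type, and only the last 2 overlapped.

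Calr3 (chr8:72424176-72443870, minus strand) encodes calsperin, which in mice is needed for ADAM3 to reach the sperm surface. It had 138, 99.8, 115, 91.5 and 123 TPM in the heated knockout and 23.05, 10.5, 11.45 and 11.4 TPM in heated wild type. Unheated knockout libraries ran from 109 over a median of 117 to 129 TPM, and unheated wild-type ones from 107 over 114 to 123 TPM. The heated knockout values thus lay around those of unheated libraries, with a wider spread, and the heated wild-type values far below all others. The heat effect was -0.06 ± 0.14 log2 in the knockout, which did not pass (adjusted p = 0.680), and -3.01 ± 0.15 in wild type (adjusted p = 1.90e-14). In the knockout it ran from -0.14 to 0.01 as each library was left out. Under the other alternatives it ran from -0.10 to 0.27, so its sign was not settled. After heat Calr3 was 8.05-fold higher in the knockout than in wild type, at a log2 difference of 2.98 ± 0.15 (adjusted p = 1.23e-12). The means of unheated knockout, unheated wild type and heated knockout did not differ beyond their spread, and heated wild type was last in the order.

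Canx (chr11:50293961-50325673, minus strand) encodes calnexin. Heated knockout libraries had 131, 149.6, 113, 159.6 and 163 TPM and heated wild-type libraries 239, 259, 273 and 246 TPM. Unheated knockout libraries had a lowest value of 105, a median of 108 and a highest of 114 TPM, and unheated wild-type libraries 97.0, 103 and 111 TPM. Heated wild type stood above all others, and heated knockout 3 fell inside the unheated knockout range. Canx rose by 0.38 ± 0.07 log2 with heat in the knockout (adjusted p = 6.08e-05) and by 1.29 ± 0.08 in wild type (adjusted p = 5.20e-13).

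Clgn (chr8:83389867-83428552, plus strand) encodes calmegin, the germ-cell relative of calnexin, on which in mice the pairing of ADAM1 with ADAM2 depends. It measured 132, 97.5, 97.0, 98.55 and 157 TPM in the heated knockout and 47.8, 25.85, 38.6 and 57.5 TPM in heated wild type. Without heat the lowest, median and highest values were 406, 425 and 441 TPM in the knockout and 417, 432 and 485 TPM in wild type. The heated groups lay far below the unheated ones, and every heated knockout library lay above every heated wild-type one. Clgn fell by 1.89 ± 0.14 log2 in the knockout (adjusted p = 1.08e-10) and by 3.39 ± 0.15 in wild type (adjusted p = 5.04e-15). After heat it was 2.74-fold higher in the knockout (log2 difference 1.46 ± 0.16, adjusted p = 4.43e-08). In heated wild type the TPM of Canx was 4.28 to 10.03 times that of Clgn, whereas in all 12 unheated libraries Clgn exceeded Canx, with a Canx over Clgn ratio between 0.230 and 0.269.

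Pdia3 (chr2:121413775-121438687, plus strand), the oxidoreductase that works with both lectins, was the broadly expressed member with the smallest heat effects in both genotypes. It had 213, 235, 186, 243 and 233 TPM in the heated knockout, 355, 403, 411 and 365 TPM in heated wild type, a lowest, median and highest of 199, 209 and 233 TPM in the unheated knockout, and 195, 206 and 216 TPM in unheated wild type. Heated wild type alone stood apart, and the other 3 groups overlapped. Its heat effect was 0.90 ± 0.07 log2 in wild type (adjusted p = 1.79e-11). In the knockout it was 0.07 ± 0.06 (adjusted p = 0.318), which did not pass. It did pass under quantile normalization, where it was 0.30, and without heated knockout 3, where it was 0.13. An exon stretch of 18 bases is shared with Catsper2 on the opposite strand, 0.6% of the exon bases of Pdia3, and the sources used here do not say whether counting used strand.

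Pdilt (chr7:119486587-119523489, minus strand) encodes the germ-cell relative of the disulfide isomerases, which in mice works with Calr3 and Clgn in the maturation of ADAM3. Values were 46.0, 32.6, 34.8, 31.3 and 64.95 TPM in the heated knockout and 11.3, 3.47, 3.89 and 5.77 TPM in heated wild type. Unheated knockout libraries spanned 129.9 to 156 TPM with a median of 143, and unheated wild-type libraries 135 to 154 TPM with a median of 148. As with Clgn, neither heated group overlapped an unheated one, and the heated groups did not overlap each other. Pdilt fell by 1.81 ± 0.20 log2 in the knockout (adjusted p = 2.58e-08) and by 4.49 ± 0.21 in wild type (adjusted p = 7.46e-15), where its change had a percentile of 1.04 among all genes. Of its exon bases 8.8% are shared with Gm37518 and 4.6% with Acsm5, both on the opposite strand. Group means of Acsm5 were at most 1.065 TPM and those of Gm37518 lower, and reads could be misassigned if strand was not used.

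The other 4 broadly expressed members rose in both genotypes and by more in wild type. P4hb (chr11:120560298-120573253, minus strand), protein disulfide isomerase itself and also a subunit of prolyl 4-hydroxylase, had 90.1, 110.4, 96.6, 109 and 101 TPM in the heated knockout and 159, 176, 165 and 154 TPM in heated wild type, against 48.2 to 57.8 TPM in the unheated knockout and 43.0 to 47.65 TPM in unheated wild type. It rose by 0.98 ± 0.06 log2 in the knockout and by 1.81 ± 0.06 in wild type (adjusted p = 1.80e-12 and 7.74e-17). Pdia4 (chr6:47796141-47813430, minus strand), a disulfide isomerase with an extra thioredoxin-type domain, had 59.7, 67.5, 56.9, 71.6 and 65.6 TPM in the heated knockout and 111, 119, 118 and 108 TPM in heated wild type, against 30.2 to 38.1 TPM in the unheated knockout and 27.7 to 29.7 TPM in unheated wild type. Its rise of 1.96 ± 0.07 log2 in wild type (adjusted p = 6.67e-17) was the largest among the members, and in the knockout it rose by 0.96 ± 0.06 (adjusted p = 6.86e-12). For P4hb and Pdia4 no 2 of the 4 groups overlapped.

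Pdia6 (chr12:17266545-17284770, plus strand), a disulfide isomerase that works beside the ER Hsp70 protein BiP, had 145, 169.7, 144, 169.8 and 167 TPM in the heated knockout and 250.4, 255, 287 and 245 TPM in heated wild type. It ran from 124 to 151 TPM in the unheated knockout and from 118 to 125 TPM in unheated wild type. Hsp90b1 (chr10:86690209-86705509, minus strand), the ER member of the Hsp90 family known as GRP94, had 422, 427, 351, 415 and 425 TPM in the heated knockout and 697, 731, 718 and 664 TPM in heated wild type. It ran from 319.7 to 362 TPM in the unheated knockout and from 309 to 371 TPM in unheated wild type. For both genes heated and unheated knockout libraries overlapped, and heated wild type stood clear of all. Pdia6 rose by 0.29 ± 0.06 log2 in the knockout and by 1.08 ± 0.06 in wild type, and Hsp90b1 by 0.25 ± 0.06 and 1.11 ± 0.06 in the same order (adjusted p = 0.000116, 3.99e-13, 0.000379 and 7.02e-14). Of the exon bases of Hsp90b1, 10.3% are shared with 1810014B01Rik on the opposite strand, which averaged at most 11.7 TPM in any group, so reads could be misassigned if strand was not used.

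Counts of called members say little by themselves here, because heat moved most of the transcriptome. In the knockout 8 of 10 members were called at an adjusted p under 0.05 beside 82.8% of all genes tested. Of these 6 were higher, beside 41.3% of all genes, and 2 lower, beside 41.5%. In wild type 10 of 10 were called, beside 91.6%, with 7 higher and 3 lower, beside 47.0% and 44.6%. Groups did not overlap for 5 of 10 members in the knockout, beside 69.7% of genes, and for 10 of 10 in wild type, beside 86.5%. The median of the 10 log2 changes was 0.27 in the knockout and 1.09 in wild type, where all genes had medians of 0.01 and 0.06. When libraries were scaled by median of ratios, the median over all genes moved by -0.13 for heat in wild type and by 0.09 or less in the other comparisons, and no call of a member changed.

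**Figure D3:**
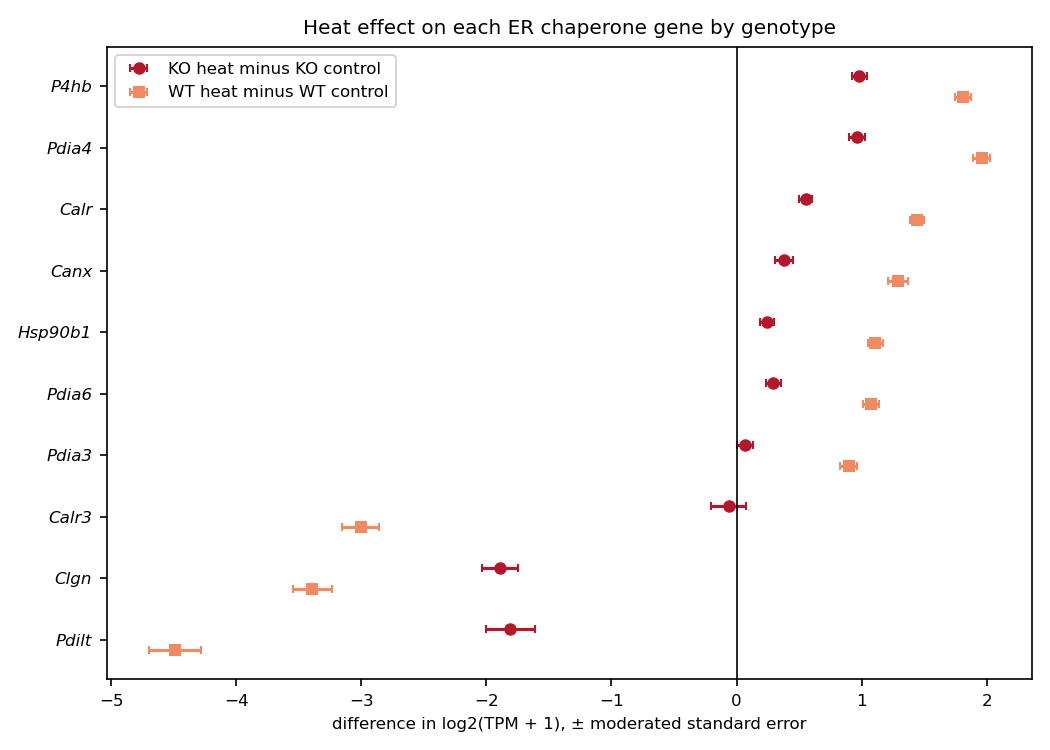
Heat effect on each member as a difference in log2(TPM + 1) (x axis), heated minus unheated, with moderated standard errors, in the knockout (red circles) and in wild type (orange squares). In all 7 broadly expressed genes the wild-type square lies to the right of the knockout circle, and in Calr3, Clgn and Pdilt it lies to the left.

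After heat all 10 members differed between the genotypes. The 7 broadly expressed genes were lower in the knockout, with log2 differences in a narrow span of -0.69 (P4hb) to -0.83 (Canx), and the 3 germ-cell genes higher, by 1.46 (Clgn) to 2.98 (Calr3). That made 10 of 10 called, beside 83.5% of all genes, with 3 higher and 7 lower, beside 34.4% and 49.0%. None of the 10 overlapped between the heated groups, as for 72.3% of all genes, whose median difference was -0.20. In ratios of mean TPM the broadly expressed genes stood 1.61-fold (P4hb) to 1.78-fold (Canx) lower in heated knockout than in heated wild type. The difference between the 2 heat effects passed for all 10 members, beside 80.7% of all genes, with 3 higher and 7 lower, beside 33.2% and 47.6%. It was -0.78 ± 0.09 for Pdia6, -0.83 ± 0.08 for P4hb, -0.83 ± 0.09 for Pdia3, -0.87 ± 0.08 for Hsp90b1, -0.89 ± 0.07 for Calr, -0.91 ± 0.11 for Canx and -0.999 ± 0.09 for Pdia4. For the germ-cell genes it was 1.502 ± 0.21 for Clgn, 2.68 ± 0.29 for Pdilt and 2.94 ± 0.20 for Calr3. The comparisons share their heated libraries, so these counts are not separate evidence.

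Without heat no member was called between unheated knockout and unheated wild type by limma (0 of 10, beside 1.33% of all genes, 1.25% higher and 0.0843% lower). Among the members Pdia4 and P4hb had the lowest adjusted p. Pdia4 averaged 32.5 ± 2.82 TPM in the unheated knockout and 28.5 ± 0.869 TPM in unheated wild type, and P4hb 50.7 ± 3.58 and 45.8 ± 1.69 TPM in the same order. For both the groups did not overlap, as for 4.97% of all genes. Their log2 differences were 0.18 ± 0.06 and 0.14 ± 0.05 (adjusted p = 0.120 and 0.186). Unheated knockout 6 had the highest value of both genes, and without the 3 libraries that stand apart the differences were 0.13 and 0.10 (adjusted p = 0.369 and 0.508). The count over all genes was itself not stable, at 253 with all libraries, 25 without unheated knockout 6, 19 without unheated wild type 3 and 22 without the 3 libraries that stand apart. Sertoli cell markers had a median log2 difference of 0.34 between unheated knockout and unheated wild type, with 5 of 12 called higher, Leydig cell markers 0.38, with 2 of 8, and macrophage markers 0.30, with 1 of 7. Their part in these values was not tested.

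The pairs were compared as the log2 ratio of the broadly expressed gene to its germ-cell relative in each library, (TPM + 1) over (TPM + 1), with 2-sided exact permutation tests adjusted over 15 tests. For Calr over Calr3 this ratio was 2.71 ± 0.35 in heated knockout and 6.50 ± 0.53 in heated wild type, and 2.10 ± 0.11 in unheated knockout and 2.05 ± 0.11 in unheated wild type. Heat raised it by 0.62 in the knockout, with overlapping ranges (exact permutation p = 0.00433, adjusted p = 0.00714), and by 4.45 in wild type with none (exact permutation p = 0.00476, adjusted p = 0.00714). The germ-cell share of the summed TPM of the pair was 13.4 ± 2.83% in heated knockout, 1.08 ± 0.479% in heated wild type, 18.9 ± 1.20% in unheated knockout and 19.4 ± 1.27% in unheated wild type.

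Canx and Clgn changed rank. Clgn supplied 44.6 ± 5.48% of the summed TPM of the pair in heated knockout and 14.3 ± 4.41% in heated wild type, and 79.6 ± 0.521% in unheated knockout and 80.9 ± 0.344% in unheated wild type. The log2 ratio of Canx to Clgn was 0.31 ± 0.32 in heated knockout, near parity, and 2.61 ± 0.54 in heated wild type, and -1.95 ± 0.05 in unheated knockout and -2.07 ± 0.03 in unheated wild type. Heat raised it by 2.27 in the knockout (exact permutation p = 0.00216, adjusted p = 0.00541) and by 4.68 in wild type (exact permutation p = 0.00476, adjusted p = 0.00714). Of the 3 ratios it was the 1 whose difference also passed between unheated knockout and unheated wild type, at 0.12 with no overlap between 6 and 6 libraries (exact permutation p = 0.00216, adjusted p = 0.00541). That difference held at 0.10 without the libraries that stand apart (adjusted p = 0.0162), although neither gene alone was called there. The p with all libraries is the smallest that 6 against 6 allow, and how often other gene ratios separate was not computed. Some somatic markers were also higher in unheated knockout, and their part in this ratio was not tested. Unheated values of the other 2 pairs differed by 0.05 and 0.06 (exact permutation p = 0.481 and 0.487).

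Pdilt made up 15.8 ± 4.26% of the summed TPM of Pdia3 and Pdilt in heated knockout, 1.61 ± 1.03% in heated wild type, 40.5 ± 2.39% in unheated knockout and 41.5 ± 1.19% in unheated wild type. The log2 ratio of Pdia3 to Pdilt was 2.43 ± 0.45 in heated knockout and 5.88 ± 0.75 in heated wild type, and 0.55 ± 0.14 in unheated knockout and 0.49 ± 0.07 in unheated wild type. Heat thus raised it by 1.88 in the knockout and by 5.39 in wild type (exact permutation p = 0.00216 and 0.00476, adjusted p = 0.00541 and 0.00714). In all 3 pairs the shift was smaller in the knockout. The difference of the shifts was -3.83 for Calr over Calr3, -2.41 for Canx over Clgn and -3.51 for Pdia3 over Pdilt (exact permutation of genotype within heated and within unheated libraries, p = 0.00191, 8.59e-06 and 0.00193, adjusted p = 0.00541, 0.000129 and 0.00541). This permutation assumes no genotype difference either with or without heat. The p for Canx over Clgn is the smallest possible because that ratio also separated fully without heat. It does not mark a larger difference of shifts. After heat the ratios differed by -3.78, -2.30 and -3.45, heated knockout minus heated wild type (exact permutation p = 0.00794 each, the smallest that 5 against 4 libraries allow, adjusted p = 0.00916).

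**Figure D4:**
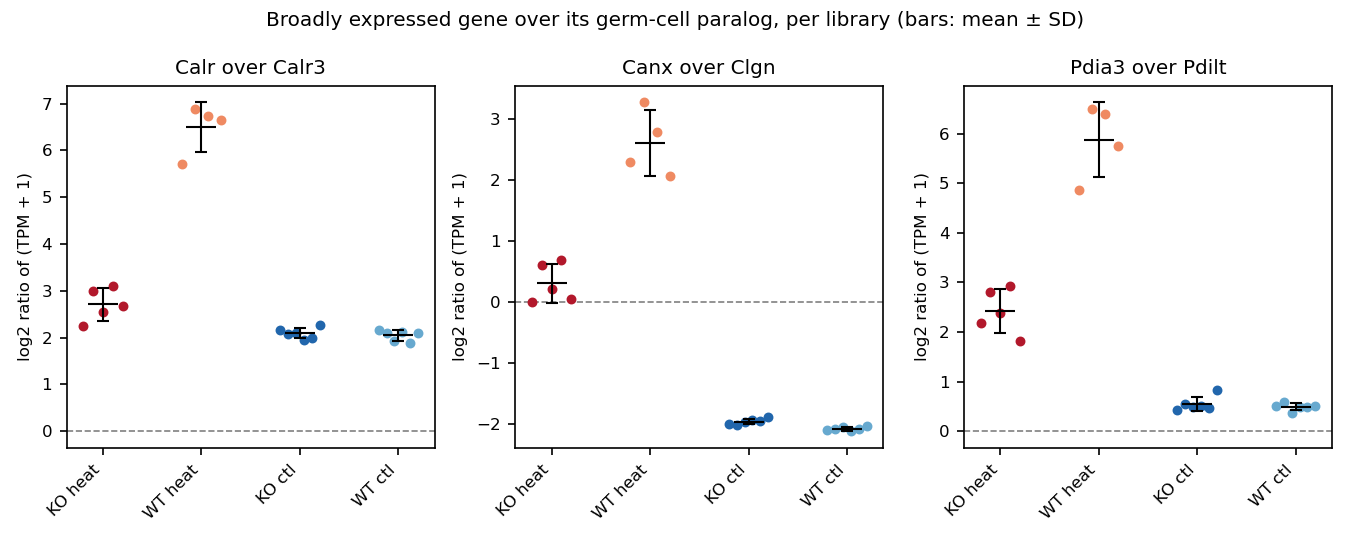
Log2 ratio of (TPM + 1) of the broadly expressed gene to that of its germ-cell relative (y axis) in each library, by group. Points are libraries, bars are means ± SD (n = 5, 4, 6 and 6 from left to right) and the dashed line marks equal levels. Heated wild type lies highest in each panel, and the heated knockout mean lies between its mean and the unheated means. For Calr over Calr3 heated and unheated knockout libraries overlap. Canx over Clgn crosses the line of equal levels.

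The germ-cell relatives did not move as a block. Calr3 parted from Clgn in the knockout and from Pdilt in both genotypes. This comparison of the germ-cell genes with each other was chosen after their values were seen, with its own 15 exact permutation tests. In the knockout heat raised the log2 ratio of Calr3 to Clgn by 1.83, to -0.02 ± 0.22 in heated knockout against -1.85 ± 0.10 in unheated knockout (exact permutation p = 0.00216, adjusted p = 0.0149). In wild type the same ratio was -1.54 ± 0.54 in heated and -1.92 ± 0.10 in unheated libraries, a difference of 0.38 that did not pass (exact permutation p = 0.133, adjusted p = 0.222). These heat effects differed by 1.44 (exact permutation p = 0.00785, adjusted p = 0.0149). Clgn to Pdilt did the opposite, with -0.08 in the knockout (exact permutation p = 0.251), 1.10 in wild type (p = 0.00476 by exact permutation, adjusted p = 0.0149) and a difference of -1.18 (exact permutation p = 0.00556, adjusted p = 0.0149). Calr3 to Pdilt shifted by 1.75 in the knockout and 1.48 in wild type, and the difference of 0.26 did not pass (exact permutation p = 0.226). When any of heated knockout 1, 2, 3 or 4 was left out, neither of the 2 differences of heat effects that passed did so any longer (adjusted p = 0.0536 each). They were then 1.37 to 1.46 for Calr3 to Clgn and -1.22 to -1.17 for Clgn to Pdilt. With 4 against 4 heated libraries no exact permutation p after heat can be under 0.0286, and these tests are adjusted together. No drop in size is read from the lost calls. Without the 3 libraries that stand apart the 2 differences were 1.62 and -1.33 (adjusted p = 0.0893 each). The knockout shifts of Calr3 to Clgn and of Calr3 to Pdilt were then 1.81 and 1.75 and no longer passed (adjusted p = 0.0595 each), nor did the wild-type shifts of Calr3 to Pdilt and of Clgn to Pdilt, at 1.46 and 1.27 (adjusted p = 0.0893 each).

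Many markers of cell types also changed with heat. The marker lists were chosen with earlier results of these data known. Counts of markers stand beside 41.3% of all genes higher and 41.5% lower in the knockout. In wild type these shares were 47.0% and 44.6%. Round spermatid markers (Acrv1, Spaca1 and 8 more) fell in 10 of 10 cases in both genotypes, with sums of 414 to 785 TPM in heated knockout, 35.2 to 149.96 in heated wild type, 1871 to 2027 in unheated knockout and 1828 to 2086 in unheated wild type. Pachytene and diplotene spermatocyte markers fell in 10 of 10 in both, with sums of 421 to 575, 204 to 320.3, 1434 to 1532 and 1465 to 1509.7 TPM in those groups. Elongating spermatid markers, among them the protamines, rose in 10 of 10 in the knockout and in 5 of 10 in wild type, where 3 fell. Their sums were 75038 to 93586 TPM in heated knockout, 34250 to 46351 in heated wild type, 47305 to 54412 in unheated knockout and 45137 to 56214 in unheated wild type. Sertoli cell markers rose in 12 of 12 in both, with sums of 6634 to 9702, 16083 to 20283, 2258 to 3023 and 1773 to 2085 TPM in the same groups.

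Somatic markers outside the tubule epithelium rose in both genotypes too, beside the same 41.3% and 47.0% of all genes. These were 8 of 8 Leydig, 6 of 6 peritubular myoid, 7 of 7 macrophage and 5 of 5 endothelial markers. Of 8 tested markers of spermatogonia, which are germ cells, 7 rose in each genotype. In those lists and the tubule lists no marker was at 0 throughout a group. Of 6 epididymal markers Lcn5 and Lcn8 were listed at 0 in all unheated libraries, and the list summed to 2266 TPM in heated wild type 3 and to at most 9.16 TPM elsewhere. Set as percent of the unheated wild-type mean, Clgn was at 26.6 ± 6.23% and Pdilt at 28.7 ± 9.69% in heated knockout, beside 31.9 ± 4.49% for the pachytene sum and 27.3 ± 7.50% for the round spermatid sum. Calr3 was at 99.0 ± 16.1% there, between those sums and the elongating spermatid sum at 159 ± 13.5%. In heated wild type Calr3 was at 12.3 ± 5.22%, Clgn at 9.70 ± 3.08% and Pdilt at 4.18 ± 2.46%, beside 17.5 ± 3.31%, 3.46 ± 2.76% and 81.0 ± 10.6% for the 3 sums. Calr was at 156 ± 14.5% and 272 ± 10.1% in heated knockout and heated wild type, where the Sertoli sum was at 416 ± 76.5% and 918 ± 93.1%. The part of the cell mix in the chaperone values was not tested.

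**Figure D5:**
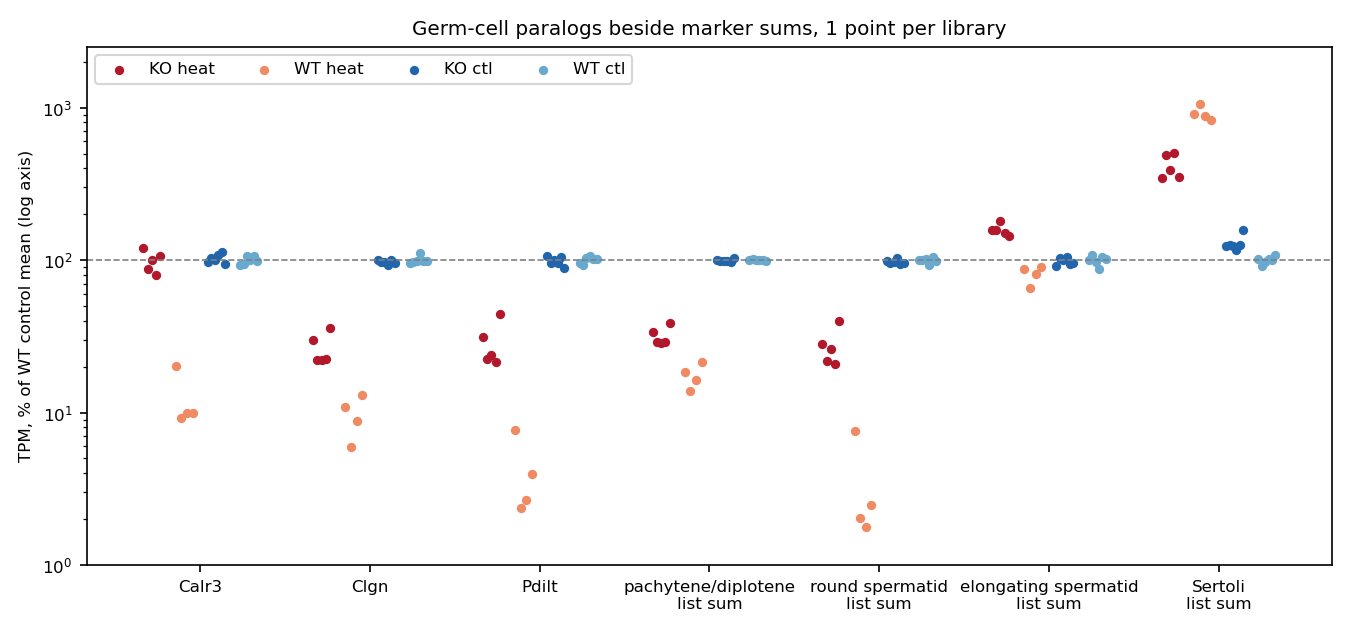
Calr3, Clgn, Pdilt and 4 marker sums in every library as percent of the unheated wild-type mean (y axis, log scale; dashed line, 100%). Points are libraries, colored by group. In heated knockout Clgn and Pdilt lie near the pachytene and round spermatid sums at 26.6% to 31.9%, while Calr3 lies at 99.0%.

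Genes that work around the chaperones were read from 4 further lists. Their counts stand beside shares of all genes tested of 41.3% higher and 41.5% lower with heat in the knockout, 47.0% and 44.6% in wild type, and 34.4% and 49.0% after heat, and nothing particular to a list is read from them. In the cycle of sugar trimming and lectin binding 8 of 12 genes rose and 3 fell in the knockout, 10 rose and 1 fell in wild type, and after heat 11 of 12 were lower in the knockout, with a median log2 difference of -0.74 beside -0.20 for all genes. Uggt1, the sensor that sends unfolded glycoproteins back to the lectins, had 26.0 ± 2.61 TPM in heated knockout and 47.8 ± 3.55 in heated wild type, and 10.5 ± 0.804 in unheated knockout and 9.03 ± 0.764 in unheated wild type, a 2.48-fold and 5.29-fold rise. Its relative Uggt2 fell in both genotypes, to 12.3 ± 1.57 TPM in heated knockout against 23.8 ± 1.24 in unheated knockout, and to 12.5 ± 2.14 in heated wild type against 24.3 ± 0.938 in unheated wild type. The difference between its heat effects, 0.01 log2, did not pass.

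Among 13 tested thiol oxidoreductases outside the members 8 rose and 1 fell in the knockout, and 11 rose and 1 fell in wild type, beside 82.8% and 91.6% of all genes called in either direction. Pdia5, a further disulfide isomerase, had 75.3 ± 10.5 TPM in heated knockout and 135 ± 7.52 in heated wild type, against 21.6 ± 2.00 in unheated knockout and 16.5 ± 0.869 in unheated wild type. Ero1lb, an oxidase that recharges disulfide isomerases, was the 1 that fell, to 40.2 ± 6.90 TPM in heated knockout against 88.2 ± 5.02 in unheated knockout and to 30.0 ± 1.23 in heated wild type against 88.7 ± 6.21 in unheated wild type. Its paralog Ero1l moved the other way, with log2 heat effects of 0.89 in the knockout and 2.47 in wild type, both called. Pdia5 and Txndc5 were the 2 genes of this list called higher in unheated knockout than in unheated wild type, beside 1.25% of all genes. Calls in that comparison were not stable, at 253 genes with all libraries and 25 without unheated knockout 6. Neither gene was followed through the alternatives.

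BiP (Hspa5), the ER Hsp70 protein, and its cofactors gave 8 higher and 3 lower of 14 in the knockout and 11 higher and 3 lower in wild type, beside the same 82.8% and 91.6%. Sdf2 rose 2.12-fold in the knockout and 4.12-fold in wild type, to 48.7 ± 5.26 TPM in heated knockout and 86.6 ± 7.11 in heated wild type. Creld2 fell in both, to 58.2 ± 10.6 TPM in heated knockout and 59.9 ± 4.31 in heated wild type, against 195 ± 8.38 in unheated knockout and 207 ± 5.54 in unheated wild type. Hspa5 itself rose by 0.63 log2 in the knockout and 1.48 in wild type. Dnajb9, a target of the IRE1 and XBP1 branch of the unfolded protein response, differed by -0.08 log2 in the knockout, which was not called, and rose by 0.19 in wild type. Sdf2l1, a relative of Sdf2 known to be induced by ER stress, fell in both, by 0.51 and 0.21 log2.

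The 12 sperm surface clients and genes of ADAM3 maturation gave 3 higher and 6 lower in the knockout and 2 higher and 9 lower in wild type, beside the same shares. After heat 10 of 12 were higher in the knockout and 2 lower, beside 83.5% of all genes called (median log2 difference 1.39, beside -0.20 for all genes). Adam1b, an ADAM protein of sperm that pairs with Adam2, had 11.6 ± 2.92 TPM in heated knockout and 4.09 ± 1.27 in heated wild type, against 79.1 ± 3.08 in unheated knockout and 84.1 ± 3.83 in unheated wild type. Adam3 fell by 0.80 log2 in the knockout and by 2.66 in wild type. Prss37, a serine protease relative needed in mice for ADAM3 maturation, had a heat effect of 0.20 log2 in the knockout, which was not called, and a fall by 3.21 in wild type. Tpst2, a tyrosine sulfotransferase of the Golgi, rose, with 10.4 ± 1.90 TPM in heated knockout and 16.0 ± 1.31 in heated wild type, and 6.00 ± 0.736 in unheated knockout and 4.75 ± 0.594 in unheated wild type.

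Likeness of pattern was measured as the root mean square difference of log2(TPM + 1), each gene centred on its mean over the 21 libraries, among 10753 genes, those averaging 5 TPM or more apart from the members, predicted genes and clone names. Closest to Calr were Dazap2 (0.0518), Hspa5 (0.0564) and Med4 (0.0611), and its closest member was Canx at 0.106. Calr3 was followed most closely by Mapre3 (0.0929), Asb9 (0.118) and Ppp1r2-ps1 (0.124), while its closest member, Clgn, was at 0.804. Mapre3 shared the flat course in the knockout, with a mean of 257 TPM in heated knockout and 31.4 in heated wild type, against 262 in unheated knockout and 269 in unheated wild type. Near Canx lay Smad5 (0.0597), Arl6ip1 (0.0661) and Ipo7 (0.0705), and near Pdia3 Itfg1 (0.0460), Cd164 (0.0588) and Rab6a (0.0589). Clgn was closest to Rnf32 (0.0689), Sphkap (0.0711) and Ube2u (0.0840), and Pdilt to Adam24 (0.0741), Kcne3 (0.0792) and Lrrc36 (0.0843), with Clgn and Pdilt at 0.493 from each other. These are descriptions over libraries that share their cell mix.

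Summed over the 10 members, ER chaperone RNA came to 2114 ± 161 TPM in heated knockout and 3237 ± 123 in heated wild type, and to 2068 ± 57.7 in unheated knockout and 2005 ± 79.4 in unheated wild type. The 3 germ-cell genes held 272 ± 55.3 TPM of it in heated knockout, 62.6 ± 19.3 in heated wild type, 687 ± 23.8 in unheated knockout and 698 ± 32.6 in unheated wild type. The mean total of the heated knockout thus differed from that of the unheated knockout by less than its SD, while the germ-cell share of it was smaller in every heated knockout library than in any unheated one.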

How the data were processed

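RNA sequencing of 21 whole-testis samples was used as deposited. The authors' values are TPM, scaled to the same sum in each library, so read depth is not kept. STAR and the mm10 genome are named per the submitters' processing notes, without versions, and the sources used here do not name the annotation or the tool that made the TPM. Table columns were matched to samples by their labels.

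Values were transformed to log2(TPM + 1), and 18977 of 55573 rows with a mean of at least 1 TPM entered a linear model of the 4 group means in limma 3.58.1 (R 4.3.3), with empirical Bayes moderation, a mean-variance trend and Benjamini-Hochberg adjustment over all genes tested. The threshold was an adjusted p under 0.05. The spread is shared by all 21 libraries. Ratios of gene pairs were tested by 2-sided exact permutation over libraries in Python 3.11.15 (difference of heat effects: 116424 arrangements of genotype within heated and within unheated libraries), adjusted over 15 tests. The arrangements for the difference of heat effects assume no genotype difference in either condition. P-values measure the spread between libraries labelled as biological replicates. No identical libraries were found. The fit and the permutation tests were tested on simulated data first.

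Coordinates are from GENCODE M21 on mm10 and promoter sequences from RefSeq on GRCm38.p6. Named genes follow a rule: all members, the targeted gene, the highest and lowest moderated t of heat in wild type in each pathway list, and the 3 genes most like each paired member. Hspa5, Ero1l, Txndc5, Dnajb9, Sdf2l1, Adam3, Prss37 and Crisp1 were named after their values were seen. Members and lists were chosen with earlier results of these data known. Alternatives were another pseudocount, other filters, 2 other scalings, a replicate block and leaving out each library or the 3 that stand apart.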

Additional observations from a re-analysis of the deposited data

Results flagged for a closer look

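Of 52 groups of member or pair values, 8 had a library far from its group by Dixon's test at the 95% level, where chance gives about 1 in 20. Unheated knockout 6 stood high for Pdia4 at 38.06 TPM (others 30.2 to 32.4), Pdia6 at 150.85 TPM (others 124.3 to 126.5) and P4hb at 57.84 TPM (others 48.2 to 50.2), and the same library had the Pdia3 over Pdilt log2 ratio of 0.84 (others 0.44 to 0.55). Calr3 stood at 23.05 TPM in heated wild type 1 (others 10.48 to 11.45), the library with the highest sum of round spermatid markers in its group. Unheated wild type 4 had Clgn at 484.58 TPM (others 417 to 434) and Hsp90b1 at 371.22 TPM (others 309 to 320.2). Hsp90b1 was at 350.76 TPM in heated knockout 3 (others 415 to 427).

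The heat effects differed between the genotypes by the test of the difference itself, on the log2 scale and as knockout minus wild type. The difference was -0.89 for Calr, -0.91 for Canx, -0.83 for Pdia3, -0.999 for Pdia4, -0.78 for Pdia6, -0.83 for P4hb and -0.87 for Hsp90b1, and 2.94 for Calr3, 1.502 for Clgn and 2.68 for Pdilt (limma, all called). For the ratios it was -3.83 for Calr over Calr3, -2.41 for Canx over Clgn and -3.51 for Pdia3 over Pdilt (exact permutation). Such a difference is common in these data, with 80.7% of all genes called.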

How the results depend on the processing

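The number of members called was within 8 to 9 for heat in the knockout, 10 for heat in wild type, 10 after heat, 0 without heat and 10 for the difference between heat effects, under every alternative run, leaving out each library included. Heat raised Pdia3 in the knockout to a call under quantile normalization (0.30) and without heated knockout 3 (0.13). No result reversed. With the 3 libraries that stand apart left out, heat in wild type moved the log2 ratio by 4.72 for Calr over Calr3, 4.75 for Canx over Clgn and 5.63 for Pdia3 over Pdilt, and the knockout differed from wild type after heat by -4.06, -2.36 and -3.70. These 6 were as large as with all libraries but no longer passed (adjusted p of 0.0536 and 0.0549), since 2 heated wild-type libraries allow no exact permutation p under 0.0357 and 0.0476.

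Leaving out each library in turn, in the order heat in the knockout, heat in wild type, after heat, without heat and difference of the heat effects, the ratio moved by 0.52 to 0.74, 4.32 to 4.71, -4.05 to -3.66, 0.01 to 0.08 and -4.09 to -3.70 for Calr over Calr3. For Canx over Clgn it moved by 2.17 to 2.35, 4.46 to 4.86, -2.48 to -2.08, 0.10 to 0.13 and -2.59 to -2.19, and for Pdia3 over Pdilt by 1.75 to 2.03, 5.18 to 5.72, -3.79 to -3.24, 0.0025 to 0.0822 and -3.85 to -3.30. Among ratios of the germ-cell genes, chosen after seeing the data, those of Calr3 over Clgn and of Clgn over Pdilt lost their calls after heat and for the difference between heat effects without each of heated knockout 1 to 4 (adjusted p of 0.0536). With 4 against 4 heated libraries no exact permutation p after heat can be under 0.0286. With the 3 libraries that stand apart left out 8 of their calls were lost (adjusted p of 0.0595 and 0.0893), with values of 1.27 to 1.81 and -1.37 to -1.33. Calr3 over Clgn in wild type passed without heated wild type 4 (0.62), Calr3 over Pdilt after heat without heated knockout 5 (0.45) and, without heat, without unheated knockout 1 (0.09).

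Replicate numbers shared between groups do not pair the libraries: deviations of same-numbered libraries correlated between -0.228 and 0.314, with 4 of 28 pairs over 0.1. With the replicate number as a block 8, 10, 10, 0 and 10 members were called in the same order, and the ratios of the 3 pairs differed between genotypes in their heat effect by -3.81, -2.40 and -3.46. Over all genes the count called without heat was 253, between 55 and 454 with other filters, pseudocounts and scalings, and between 19 (without unheated wild type 3) and 492 (without heated knockout 4) as each library was left out. It was 25 without unheated knockout 6, 42 without unheated wild type 5, 68 to 98 without any of unheated knockout 1 to 5, 95, 52 and 143 without unheated wild type 1, 2 or 6, and 22 without the 3 libraries that stand apart. TPM sets no depth limit that can be stated, and Pdilt in heated wild type is the lowest member at 3.47 TPM.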
